A study of Mus musculus with 6 samples.

Results

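The T cell receptor alpha segments were taken as every row of the deposited gene table whose biotype names a T cell receptor gene and whose symbol begins with Tra. That rule gave 191 of 55487 genes: 130 variable (Trav) segments, 60 joining (Traj) segments and the constant gene Trac. Lymphocytes of wild-type C57BL/6J mice had been sorted alive from the epithelium of the small intestine. The sort gave 3 libraries of B220+CD3ε+CD45+ cells, labelled X cells, and 3 of B220-CD3ε+CD45+ cells, labelled T cells. Neither group is labelled with a drug treatment, an altered gene or an age. CD3ε is a subunit of every T cell receptor complex, CD45 is the leukocyte phosphatase, and B220 is a long CD45 isoform that B cells typically display.

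The α chain of the αβ T cell receptor is assembled from 1 V segment, 1 J segment and Trac by cutting and rejoining DNA in the thymus. The genes of the δ chain lie inside the same locus, between the Trav and the Traj segments, so that a V-to-J joining removes them. V segments with dv in the name can be joined into either an α or a δ chain. First joinings tend to use Trav segments near the J side and Traj segments near the V side, and later rounds move outwards from there. In C57BL/6 mice a stretch of the V region exists in near-identical copies, whose names carry d or n. Gut epithelium holds many γδ T cells beside αβ T cells, including αβ cells with the CD8αα homodimer.

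All 191 segments lie on the plus strand of mouse chromosome 14 in the mm10 build, ordered Trav, Traj, Trac, and Trac (ENSMUSG00000076928) spans chr14:54220521-54224206. In the B220+ libraries, total counts over all genes were 11810859, 39591312 and 14173322 in replicates 1, 2 and 3, and in the B220- libraries they were 18773165, 17753655 and 11320363. Trac had 6220, 17658 and 6845 counts in the B220+ libraries, and 9229, 7936 and 5766 in the B220- libraries. Trav segments together had 1807, 5322 and 1669 counts in the B220+ libraries, against 2515, 2287 and 1585 in the B220- libraries. Traj segments together had only 142, 518 and 169 counts in the B220+ libraries and 213, 185 and 133 in the B220- libraries. Usage is given below as a segment's share of all Trav or all Traj counts of its library, and Traj shares are therefore coarse. Separate mice are not named for the libraries in the labels, so the p-values rest on a library-to-library spread that may be technical.

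The sequences of the 5 most counted Traj segments, and of the J segments of the invariant receptors of NKT cells (Traj18) and MAIT cells (Traj33), are shown because the Traj comparison rests on them. Capitals mark the Phe/Trp-Gly-X-Gly motif at which a J segment bends in the folded receptor. The motif was searched on the coding strand in any frame and was found in 45 of the 60 Traj segments (75%). Sequences are the exons of GENCODE release M21, which uses mm10.
Traj58: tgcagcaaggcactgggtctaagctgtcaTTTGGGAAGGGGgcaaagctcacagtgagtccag
Traj26: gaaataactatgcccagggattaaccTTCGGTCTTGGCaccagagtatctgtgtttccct
Traj1: gtgtgcagatagctgctccatctttcctg
Traj2: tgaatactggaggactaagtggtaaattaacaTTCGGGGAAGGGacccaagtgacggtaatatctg
Traj3: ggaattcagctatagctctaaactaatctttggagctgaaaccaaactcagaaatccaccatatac
Traj18: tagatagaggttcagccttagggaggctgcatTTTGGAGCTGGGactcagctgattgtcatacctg
Traj33: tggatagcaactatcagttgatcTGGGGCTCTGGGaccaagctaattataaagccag
Traj58 (ENSMUSG00000076875) is at chr14:54157280-54157342, near the V end of the J cluster, Traj26 at chr14:54194490-54194549, and Traj1, annotated as a pseudogene of 29 bases, at chr14:54218814-54218842 next to Trac. The motif was not found in Traj1 or Traj3.

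The most counted V segment, Trav15n-2, is shown with its relatives of the same family, which differ enough for reads to be told apart over part of their length. The last 240 bases of each are given, and capitals mark the bases that differ from Trav15n-2, 5 in Trav15-2-dv6-2 and 49 in Trav15-1-dv6-1.
Trav15n-2: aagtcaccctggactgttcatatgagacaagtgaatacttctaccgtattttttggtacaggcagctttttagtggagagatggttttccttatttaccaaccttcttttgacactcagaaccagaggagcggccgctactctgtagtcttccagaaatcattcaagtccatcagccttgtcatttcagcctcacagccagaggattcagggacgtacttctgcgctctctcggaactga
Trav15-2-dv6-2: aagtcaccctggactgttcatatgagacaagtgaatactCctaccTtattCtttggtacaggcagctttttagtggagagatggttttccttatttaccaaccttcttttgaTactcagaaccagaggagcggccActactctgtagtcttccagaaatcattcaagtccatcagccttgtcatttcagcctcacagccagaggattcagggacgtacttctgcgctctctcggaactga
Trav15-1-dv6-1: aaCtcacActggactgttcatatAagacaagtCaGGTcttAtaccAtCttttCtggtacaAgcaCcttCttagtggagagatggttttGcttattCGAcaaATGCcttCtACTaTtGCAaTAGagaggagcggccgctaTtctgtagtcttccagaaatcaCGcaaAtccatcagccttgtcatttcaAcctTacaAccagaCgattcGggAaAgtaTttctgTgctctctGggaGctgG
The exons of Trav15n-2 (chr14:53267917-53268535) are identical, over all 398 bases, to those of Trav15d-2-dv6d-2, which had 1 count in the 6 libraries together. Counts of Trav15n-2 therefore cannot be assigned to 1 of the 2 copies.

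The Trav16 family is shown because it holds the only V segment called lower. The last 140 bases are given, with capitals where Trav16n (3 bases) or Trav16d-dv11 (4 bases) differ from Trav16.
Trav16: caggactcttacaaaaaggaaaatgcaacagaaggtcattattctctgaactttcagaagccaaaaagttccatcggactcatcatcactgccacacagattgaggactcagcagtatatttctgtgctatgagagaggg
Trav16n: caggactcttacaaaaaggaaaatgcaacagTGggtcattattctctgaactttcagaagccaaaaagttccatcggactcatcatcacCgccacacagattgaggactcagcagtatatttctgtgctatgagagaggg
Trav16d-dv11: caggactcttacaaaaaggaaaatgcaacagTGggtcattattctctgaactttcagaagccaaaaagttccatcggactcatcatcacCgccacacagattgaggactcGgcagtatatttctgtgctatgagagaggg

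Of the 191 segments, 162 had at least 1 count and 29 had none. The default filter on low counts left 54 for testing, namely 48 Trav, 5 Traj and Trac, so most segments were too rare for a test. Segments were compared with edgeR's quasi-likelihood test in a fit over 14722 genes, and a segment was called when its Benjamini-Hochberg adjusted p was under 0.05. Only 2 of the 54 tested segments were called (3.70%), against 11.1% of all genes tested. Of the 1782 genes with a mean level between the quartiles of the tested Trav segments, a closer background, 8.36% were called. The 2 called segments were Traj58, higher in B220+ cells, and Trav16n, lower in B220+ cells. In all genes, 5.58% were called higher and 5.56% lower. With no filter on low counts, 8 of 162 segments were called, against 8.41% of all genes. An unadjusted p under 0.05 was found for 7 of the 54 segments, against 22.4% of all genes. Normalised levels (CPM, counts scaled to library size) did not overlap between the groups for 10 of the 54 segments (18.5%), against 28.1% of all genes, and 5 of the 10 lay higher in B220+ cells and 5 lay lower.

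The segments nevertheless had wide fold changes. Their median log2 fold change (B220+ over B220-) was -0.19, against -0.0074 for all genes tested. The median size of the log2 fold change, whatever its sign, was 0.45 for the segments and 0.146 for all genes. Among the 1782 genes whose mean level lay between the quartiles of the tested Trav segments (1.05 to 2.84 CPM) it was 0.332. The fitted variation between libraries of a group (biological coefficient of variation) had a median of 0.280 for Trav and 0.245 for those 1782 genes. It was highest for Trav9n-3 (1.02), Trav15n-2 (0.930), Trav14-3 (0.867) and Trav14d-3-dv8 (0.848). Other receptor V segments are the closest genes for comparison. Of 19 tested β chain V segments 4 were called, and of 7 tested γ chain V segments 3 were called, against 11.1% of all genes. Their median biological coefficients of variation, 0.160 and 0.092 in the same order, were below the 0.280 of Trav. Calls were thus not equally easy to reach in these sets. Whether the shares called differ from that of the α segments was not tested.

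**Figure D1:**
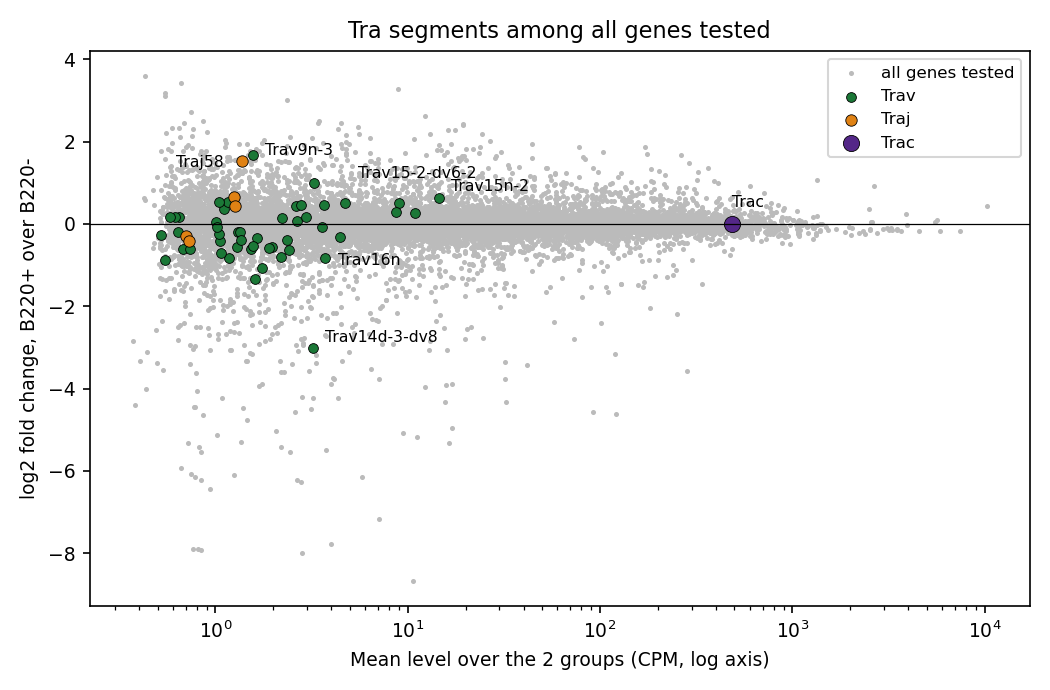
Log2 fold change (B220+ over B220-, edgeR) against the mean level of the 2 groups in CPM (log axis) for the 14722 genes tested, grey, with tested Trav segments in green, Traj in orange and Trac in purple. Trac sits at 0.0050, Traj58 at 1.54, Trav16n at -0.84 and Trav14d-3-dv8 at -3.02, and most other segments lie at low levels with fold changes on both sides of 0.

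Trac, whose product every αβ receptor needs, was the one abundant member. Its level was 527.7, 444.7 and 484.2 CPM in B220+ replicates 1, 2 and 3, against 497.2, 449.7 and 504.1 CPM in the B220- libraries. The groups overlapped, and the log2 fold change was 0.0050 (SE 0.079, edgeR adjusted p = 0.980). The sum of all Trav counts came to 135.1 ± 17.7 CPM in the B220+ group, against 134.5 ± 4.56 CPM in the B220- group (SD, n = 3 each, exact two-sided permutation p = 1.0). Per 100 Trac counts there were 27.9 ± 3.06 Trav counts in B220+ cells and 27.9 ± 0.845 in B220- cells (exact permutation p = 1.0). In bulk RNA, fewer cells of a type and less RNA per cell cannot be told apart.

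The constant genes of the other chains did not all share this evenness. In the edgeR fit, Trbc1 (log2 fold change 0.11, adjusted p = 0.493) and Trbc2 (-0.038, adjusted p = 0.845), the partners of Trac in the β chain, were not called. Trdc, the δ constant gene, was higher in B220+ cells at 995 ± 66.7 CPM, against 783 ± 34.6 CPM in B220- cells (edgeR adjusted p = 0.00977, and 0.0524 without B220- replicate 3). Trgc1, a γ constant gene, was higher at 890.2 ± 64.8 CPM, against 526 ± 27.0 CPM (edgeR adjusted p = 4.46e-05). Trgc4, another γ constant gene, was higher by 0.27 on the log2 scale (edgeR adjusted p = 0.0473), a call that ended whichever library was dropped (adjusted p up to 0.193). Trgc2 was not called (0.21, edgeR adjusted p = 0.0808, and 0.0155 with the replicate block). As a ratio within a library, there were 0.556, 0.461 and 0.452 Trac counts per Trdc count in B220+ cells, against 0.666, 0.552 and 0.639 in B220- cells. The ranges overlapped, since B220+ replicate 1 lay above B220- replicate 2 (exact permutation p = 0.2). Within each of the 3 pairs of the same replicate number the ratio was lower in B220+ cells (exact paired permutation p = 0.25, the smallest that 3 pairs can give).

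Trav usage was spread over many segments with a short list of leaders. The 10 Trav segments with the highest mean share took 49.1% of Trav counts. They were Trav15n-2, Trav13-4-dv7, Trav15-2-dv6-2, Trav16, Trav15-1-dv6-1, Trav14-3, Trav16n, Trav13-2, Trav13-1 and Trav12-2. Scaled to exon length, the first 5 kept their order, with 487, 477, 287, 238 and 160 counts per 100 bases over the 6 libraries. A V segment encodes the part of the chain that folds into the variable domain, including loops that contact the antigen-presenting molecule.

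Trav15n-2 had 290, 1078 and 13 counts in B220+ replicates 1, 2 and 3, against 232, 222 and 104 in the B220- libraries. B220+ replicates 1 and 2 were the highest of the 6 and B220+ replicate 3 the lowest by far. The shares of Trav counts were 16.0% (95% exact Clopper-Pearson interval 14.4 to 17.8), 20.3% (19.2 to 21.4) and 0.779% (0.415 to 1.33) in B220+ cells, and 9.22%, 9.71% and 6.56% in B220- cells. Intervals cover counting error only. The log2 fold change was 0.64 (SE 1.03, edgeR adjusted p = 0.807). Without B220+ replicate 3 it was 1.18 with an edgeR adjusted p of 8.56e-04, so 1 library decided the call. Another Trav15 segment of the n copies, Trav15n-1, was rare, with 3, 5 and 0 counts in B220+ cells and 9, 10 and 2 in B220- cells.

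**Figure D2:**
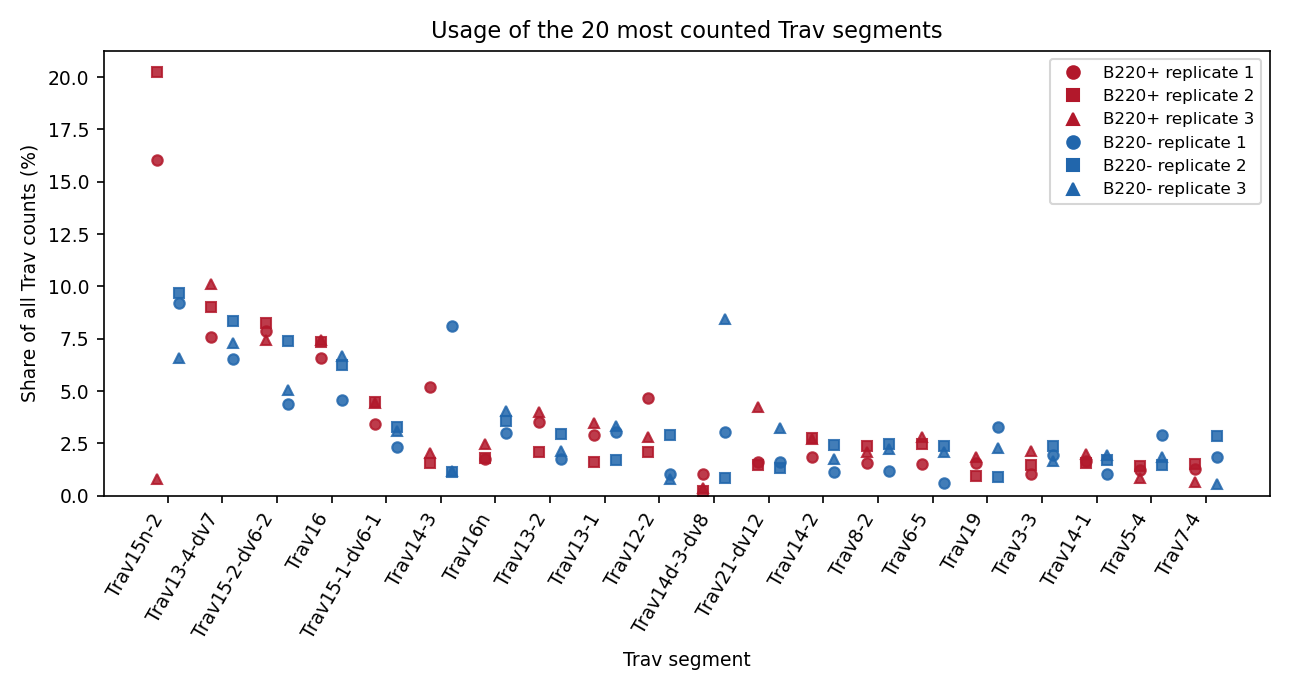
Share of all Trav counts (%) for the 20 most counted Trav segments, 1 point per library, with B220+ in red left of B220- in blue and the marker shape giving the replicate number. Trav15n-2 ranges from 0.779% to 20.3% within the B220+ libraries, while Trav15-2-dv6-2 and Trav15-1-dv6-1 sit higher in every B220+ library than in any B220- library.

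Trav15-2-dv6-2 and Trav15-1-dv6-1, the most counted of the other Trav15 segments, had higher shares in B220+ cells. Trav15-2-dv6-2 (chr14:53649404-53649994) had 142, 438 and 124 counts in B220+ cells, against 110, 169 and 80 in B220- cells. Its shares were 7.86%, 8.23% and 7.43% in B220+ cells, all just above the 4.37%, 7.39% and 5.05% in B220- cells. Its levels did overlap, at 12.05, 11.03 and 8.77 CPM in B220+ cells and 5.93, 9.58 and 6.99 CPM in B220- cells. The log2 fold change was 0.50 (SE 0.19), not called by edgeR (adjusted p = 0.135), whereas the replicate block gave an adjusted p of 0.0495. Trav15-1-dv6-1 (chr14:53559632-53560247) had 62, 239 and 74 counts in B220+ cells and 59, 75 and 49 in B220- cells. Its shares of 3.43%, 4.49% and 4.43% in B220+ cells lay above the 2.35%, 3.28% and 3.09% in B220- cells. The log2 fold change was 0.51 (SE 0.20, edgeR adjusted p = 0.142). For each of these 2 segments the exact permutation p of the share was 0.1, the smallest that 3 against 3 libraries can give, with no adjustment over the segments.

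Trav13-4-dv7 (chr14:53757356-53757921) was the most evenly spread leader. It had 137, 481 and 169 counts in B220+ cells, against 164, 191 and 116 in B220- cells. Its share averaged 8.91 ± 1.28% in B220+ and 7.40 ± 0.918% in B220- cells (SD, n = 3 each), with overlapping groups, whereas its levels of 11.62, 12.11 and 11.95 CPM in B220+ cells lay above the 8.84, 10.8 and 10.1 CPM in B220- cells. Its log2 fold change was 0.26 (SE 0.14, edgeR adjusted p = 0.281). Trav16 (chr14:53743104-53743705) was close to it, with 119, 391 and 124 counts in B220+ cells and 115, 143 and 106 in B220- cells. Its shares were 7.12 ± 0.465% in B220+ and 5.84 ± 1.12% in B220- cells, which overlapped (edgeR adjusted p = 0.348).

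Trav16n (ENSMUSG00000076822, chr14:53351028-53351621) was the one V segment called. It had 32, 95 and 41 counts in B220+ cells, against 75, 82 and 64 in B220- cells. Its shares were 1.77%, 1.79% and 2.46% in B220+ cells, below the 2.98%, 3.59% and 4.04% in B220- cells. The log2 fold change was -0.84 (SE 0.23), with an edgeR adjusted p of 0.0312. Dropping 1 library ended the call in 5 of 6 fits (adjusted p 0.053 to 0.147), the exception being the fit without B220- replicate 1. Its near copy Trav16d-dv11 (chr14:53047287-53047821) had 7, 38 and 13 counts in B220+ cells and 29, 28 and 16 in B220- cells, with a log2 fold change of -0.84 that was not called (SE 0.35, edgeR adjusted p = 0.171). Its levels and shares also lay lower in all 3 B220+ libraries. The whole Trav16 family, with its 3 segments summed, took 9.75 ± 0.964% of Trav counts in B220+ and 10.5 ± 1.59% in B220- cells (exact permutation p = 0.6).

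The other leading segments varied between libraries of the same group, some of them widely. Trav14-3 had 94, 82 and 34 counts in B220+ cells, against 204, 26 and 19 in B220- cells. Its shares were 5.20%, 1.54% and 2.04% in B220+ cells and 8.11%, 1.14% and 1.20% in B220- cells, so replicate 1 was the highest library of each group. Trav14d-3-dv8 (chr14:53078452-53079045) had 19, 13 and 6 counts in B220+ cells and 76, 19 and 134 in B220- cells. Its log2 fold change of -3.02 (SE 1.18) was the most negative of the 54, was not called (edgeR adjusted p = 0.234) and came from B220- replicates 1 and 3. Trav12-2 had 84, 110 and 47 counts in B220+ cells, against 26, 66 and 13 in B220- cells, with overlapping groups (log2 fold change 0.99, SE 0.54, edgeR adjusted p = 0.349). Trav13-2 took 3.21 ± 1.01% in B220+ and 2.27 ± 0.601% in B220- cells, and Trav13-1 took 2.66 ± 0.949% and 2.69 ± 0.868% in the same groups.

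Of 96 segments with at least 20 counts, 10 had over 50% of their summed CPM in 1 library. The most extreme were chosen after their values were seen. Trav6d-6 had 0 counts in all 3 B220+ libraries and 36, 0 and 0 in the B220- libraries, and Trav3n-3 had 0 in all 3 B220+ libraries and 0, 0 and 26 in the B220- libraries. Trav9n-3 had 16, 48 and 67 counts in B220+ cells, against 1, 33 and 2 in B220- cells. In each of these, libraries of the same group were far apart. Each has an exact copy, Trav6-6, Trav3d-3 and Trav9d-3 in that order, so its counts cannot be assigned to 1 copy. Trav6-6 had 0, 2 and 18 counts in B220+ cells and 5, 2 and 0 in B220- cells. Trav3d-3 had 13, 2 and 1 counts in B220+ cells and 0, 1 and 10 in B220- cells, and Trav9d-3 had 0 in all 6 libraries.

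The 10 segments with dv in the name were examined as a set because their reads can come from δ chains too. Of these, 9 had a count, 8 were tested and 0 were called by edgeR, while 3 had an unadjusted p under 0.05, against 22.4% of all genes. No dv segment was called with DESeq2, which called 9.62% of all genes, and 1 (Trav15-2-dv6-2) was called with the replicate block, which called 17.5%. Together they took 23.0%, 25.4% and 29.2% of Trav counts in B220+ cells, against 20.8%, 23.9% and 29.8% in B220- cells. The averages were 25.8 ± 3.13% and 24.8 ± 4.6% in the same order (exact permutation p = 0.8), so the spread within each group was larger than the difference. With Trav15n-1 and Trav15n-2 counted beside them, since each is identical to a dv segment, the share was 38.3 ± 7.93% in B220+ and 33.6 ± 3.09% in B220- cells (exact permutation p = 0.5). Trav21-dv12, the fifth of them by mean share, took 1.605%, 1.45% and 4.25% in B220+ cells, against 1.63%, 1.31% and 3.22% in B220- cells, and replicate 3 was the highest library of each group.

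Counts on near-identical V copies need care. Of the 130 Trav segments, 44 have no stretch of 50 bases that is theirs alone among the annotated transcripts. Their median count over the 6 libraries was 1, and 18 had no count, but Trav15n-2, with 1939 counts, is one of them. The 33 segments with up to 50% unique stretches had a median of 54 counts, and the 53 with more had a median of 80. An exact copy elsewhere in the locus exists for 36 Trav segments.

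In a split made after the data were seen, copies named d took a smaller share in B220+ cells, at 4.32%, 5.22% and 4.73% of Trav counts, against 9.86%, 6.95% and 13.5% in B220- cells. The groups did not overlap (exact permutation p = 0.1, the smallest possible). Without Trav14d-3-dv8 the shares were 4.23 ± 0.857% in B220+ and 6.25 ± 0.772% in B220- cells, still without overlap. Copies named n took 22.8 ± 6.93% and 21.7 ± 1.22% in the same groups, which overlapped (exact permutation p = 0.9). Without Trav15n-2 the n copies took 11.7 ± 2.30% in B220+ and 14.5 ± 1.13% in B220- cells, also with overlap (exact permutation p = 0.2). The d and n copies together, without Trav15n-2, took 17.2 ± 1.66% in B220+ and 25.5 ± 3.81% in B220- cells, without overlap (exact permutation p = 0.1). The segments with neither letter took 72.5 ± 7.06% in B220+ and 68.2 ± 2.26% in B220- cells, and overlapped as well (exact permutation p = 0.4). Of the 44 Trav segments with no unique stretch, 41 are copies named d or n. Shares by letter therefore depend on how reads were placed among copies, which is not known. Of the larger families, Trav15 took 24.4 ± 10.6% in B220+ and 17.3 ± 3.14% in B220- cells, with overlap. Trav13 took 17.7 ± 2.98% and 14.8 ± 1.70%, Trav14 took 9.29 ± 2.02% and 14.4 ± 5.22%, and Trav6 took 6.66 ± 2.90% and 6.05 ± 0.270% of Trav counts in B220+ and in B220- cells, all with overlapping groups. Of the 23 families, 4 had groups without overlap, all of them lower in B220+ cells, and 0 were higher. By comparison, 28.1% of all genes tested had levels in CPM that did not overlap. The 4 were Trav8, Trav5, Trav22 and Trav11, the last 2 with only 10 and 8 counts over the 6 libraries. Trav8 stood at 4.77 ± 0.413% in B220+ and 5.59 ± 0.411% in B220- cells, and Trav5 at 1.48 ± 0.275% and 2.98 ± 0.574% (exact permutation p = 0.1 for each).

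Traj counts were uneven along the J cluster. The Traj models are 29 to 72 bases long and also lie within unspliced RNA, so their counts need not come from joined chains. The 10 Traj segments with the highest mean share, Traj58, Traj1, Traj26, Traj2, Traj3, Traj4, Traj24, Traj6, Traj7 and Traj9, took 60.5% of Traj counts. Of all 60 Traj segments, 56 had a count, 5 were tested and 1 was called. The sum of Traj counts was 12.05, 13.04 and 11.95 CPM in B220+ cells, against 11.47, 10.48 and 11.63 CPM in B220- cells. These groups did not overlap (exact permutation p = 0.1). Without Traj58 they did, with 10.3 ± 0.863 CPM in the B220+ group, against 10.5 ± 0.795 CPM in the B220- group (exact permutation p = 0.6).

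Traj58, the segment printed first above, had 32, 81 and 20 counts in B220+ cells, against 8, 16 and 9 in B220- cells. Its shares of Traj counts were 22.5% (95% exact Clopper-Pearson interval 15.9 to 30.3), 15.6% (12.6 to 19.1) and 11.8% (7.38 to 17.7) in B220+ cells, and 3.76% (1.64 to 7.27), 8.65% (5.02 to 13.7) and 6.77% (3.14 to 12.5) in B220- cells. Every B220+ library lay above every B220- library, although the interval of B220+ replicate 3 meets those of B220- replicates 2 and 3, and that of B220+ replicate 2 meets that of B220- replicate 2. The log2 fold change was 1.54 (SE 0.40, edgeR adjusted p = 0.0263). Dropping 1 library ended the call in 4 of 6 fits, with edgeR adjusted p between 0.0683 and 0.105, and it held without B220+ replicate 3 and without B220- replicate 2. The log2 fold change lay between 1.25 and 1.80 in these fits.

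**Figure D3:**
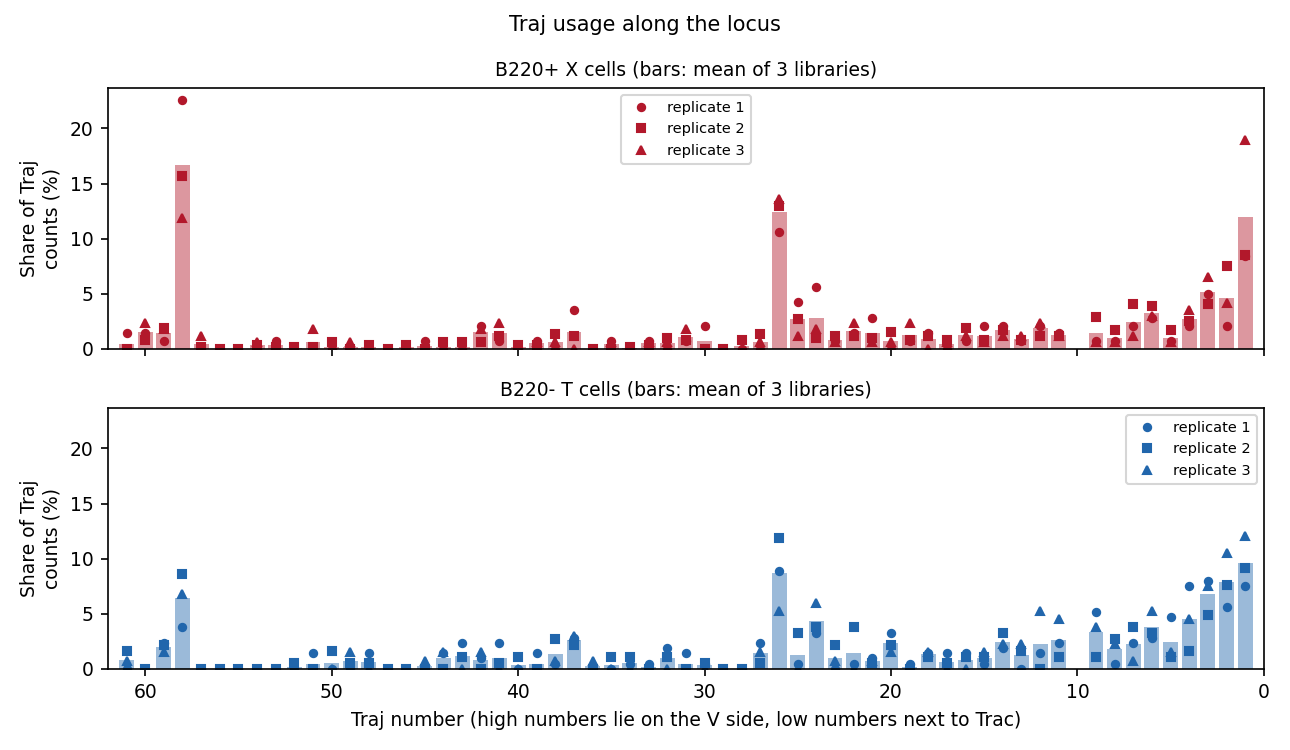
Share of all Traj counts (%) by Traj number, from the V side on the left to Trac on the right, with B220+ libraries above and B220- libraries below. Bars are means of 3 libraries and points are single libraries. Traj58 averages 16.7% in B220+ and 6.39% in B220- cells, while Traj26 and the last segments before Trac are prominent in both groups.

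Traj26 had 15, 67 and 23 counts in B220+ cells, against 19, 22 and 7 in B220- cells. Its share was 12.4 ± 1.6% in B220+ and 8.69 ± 3.32% in B220- cells. The shares overlapped, the levels in CPM did not, and the log2 fold change of 0.65 (SE 0.36) was not called (edgeR adjusted p = 0.330). Traj1, the pseudogene next to Trac, had 12, 44 and 32 counts in B220+ cells, against 16, 17 and 16 in B220- cells. Its shares were 11.96 ± 6.04% and 9.58 ± 2.28% in the same groups, with B220+ replicate 3 at 18.9% above all others.

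Traj2 took 4.595 ± 2.74% of Traj counts in B220+ and 7.91 ± 2.46% in B220- cells, and Traj3 took 5.16 ± 1.24% and 6.79 ± 1.68%, with overlapping groups and edgeR adjusted p of 0.717 and 0.773. Traj4, Traj6, Traj7, Traj9 and Traj24 had between 1 and 21 counts in each library, were not tested and had overlapping shares. Their averages in B220+ cells were 2.72% for Traj4, 3.21% for Traj6, 2.45% for Traj7, 1.40% for Traj9 and 2.79% for Traj24. In B220- cells they averaged 4.55% for Traj4, 3.77% for Traj6, 2.29% for Traj7, 3.33% for Traj9 and 4.36% for Traj24.

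Position along the locus was summarised in each direction. Traj segments numbered above 30, on the V side, took 36.6%, 29.3% and 29.0% of Traj counts in B220+ cells, against 24.9%, 26.5% and 18.8% in B220- cells. The groups did not overlap (exact permutation p = 0.1, the smallest possible, and 0.375 after adjustment over the 15 usage measures tested). Without Traj58 the share was 17.96 ± 1.62% in B220+ and 18.13 ± 4.68% in B220- cells (exact permutation p = 0.9). The mean Traj number, weighted by counts, was 25.1 ± 3.11 in B220+ and 19.7 ± 2.78 in B220- cells (exact permutation p = 0.1), or 18.6 ± 1.30 and 17.1 ± 2.66 without Traj58, when the groups overlapped. The difference in the share above Traj30 was thus 8.26 percentage points with Traj58 and -0.163 without it.

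On the V side, the Trav segments closest to the J cluster (places 66 to 130 of 130 along the locus) took 88.9%, 89.0% and 85.6% of Trav counts in B220+ cells, against 84.3%, 82.9% and 78.0% in B220- cells. These groups did not overlap either (exact permutation p = 0.1, adjusted 0.375). Leaving out the segments with no unique stretch gave 89.1 ± 0.870% in B220+ and 83.0 ± 3.39% in B220- cells, still without overlap. Leaving out the dv segments, Trav15n-1 and Trav15n-2 gave 82.4 ± 1.77% and 80.8 ± 3.08%, with overlap (exact permutation p = 0.4). The difference was thus 6.08 percentage points with all segments and 1.59 without these, and the smaller one was within the spread.

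**Figure D4:**
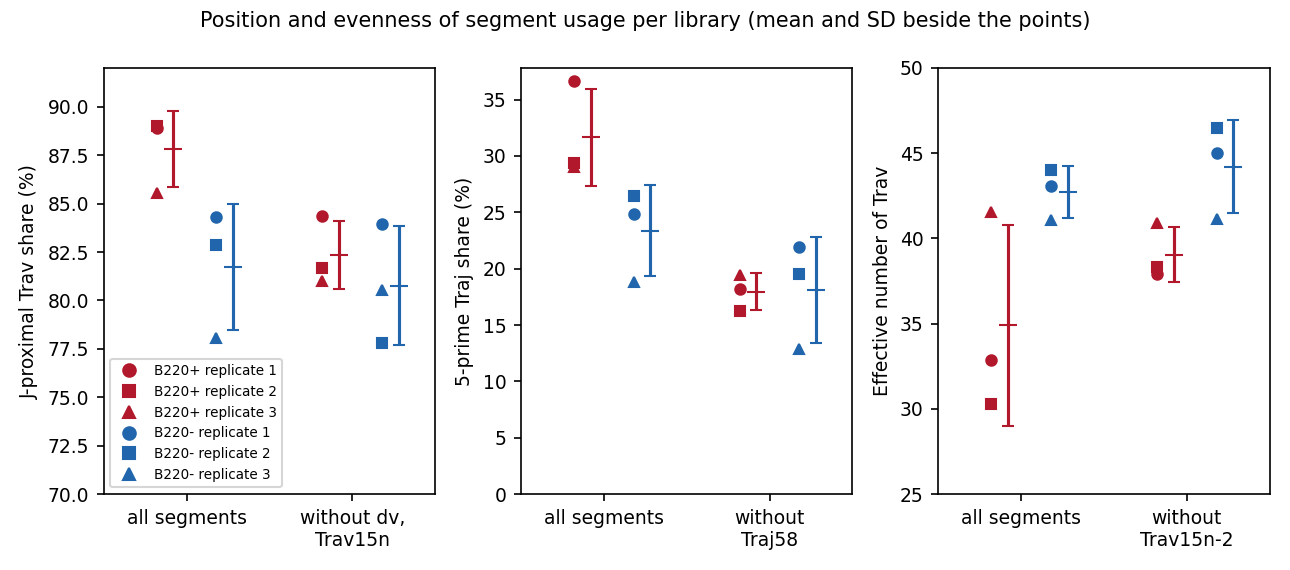
Share of Trav counts on J-proximal segments (left), share of Traj counts on segments numbered above 30 (middle) and effective number of Trav segments (right), per library, with mean and SD beside the points and B220+ in red left of B220- in blue. Each panel gives all segments and then a version without named segments. The groups part with all segments in the left and middle panels and overlap without the dv and Trav15n segments or without Traj58, and in the right panel they part only without Trav15n-2.

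Evenness was measured by the effective number of segments, the number of equally used segments that would give the same Shannon entropy. For Trav it was 32.9, 30.3 and 41.6 in B220+ cells, against 43.1, 44.0 and 41.1 in B220- cells (exact permutation p = 0.2). Without Trav15n-2 it was 37.93, 38.32 and 40.88 in B220+ cells, below the 45.02, 46.46 and 41.16 in B220- cells (exact permutation p = 0.1), though B220+ replicate 3 and B220- replicate 3 lay close together. For Traj it was 22.3 ± 3.00 in B220+ and 25.8 ± 3.31 in B220- cells (exact permutation p = 0.2). The inverse Simpson index, another measure of evenness, differed by -7.96 for Trav and -6.52 for Traj (B220+ minus B220-, all segments, exact permutation p = 0.1 each). The Trav difference in Shannon number was -7.67 without pseudogenes (exact permutation p = 0.1). It was -7.55 without overlapping models (exact permutation p = 0.2) and -1.49 by family (exact permutation p = 0.3). At an equal depth of 1585 Trav counts, 80.2 ± 1.24 Trav segments would have been seen in B220+ libraries and 82.9 ± 5.49 in B220- libraries (exact permutation p = 0.5).

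The profiles of single libraries were then compared as the share of Trav counts that would have to be moved to turn one profile into the other. Within B220+ cells this distance was 18.6%, 27.7% and 30.3% for the 3 pairs of libraries, and within B220- cells it was 24.9%, 27.4% and 29.4%. Between the groups it ran from 17.7% to 39.1% over 9 pairs. The closest pair of all was B220+ replicate 2 with B220- replicate 2, at 17.7%. Distances between the groups thus spanned those within the groups at both ends, but the lower end was this same-numbered pair. All pairs within a group have different numbers. Between-group pairs with different numbers ran from 24.0% to 39.1%. Their median was 30.8%, against 27.7% within B220+ and 27.4% within B220- cells. Without Trav15n-2 the distances were 19.7% to 22.8% within B220+ cells and 25.5% to 32.2% within B220- cells. Between the groups they were then 15.7% to 28.7% for same-numbered pairs and 20.4% to 35.7% for pairs with different numbers. Both B220+ pairs with replicate 3 moved closer, while replicates 1 and 2 stood at 20.9%. For Traj the distances were 29.2% to 34.4% within B220+, 34.8% to 37.3% within B220- and 22.9% to 43.4% between the groups, at 133 to 518 counts per library. Between-group Traj pairs with different numbers ran from 33.5% to 41.7%.

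**Figure D5:**
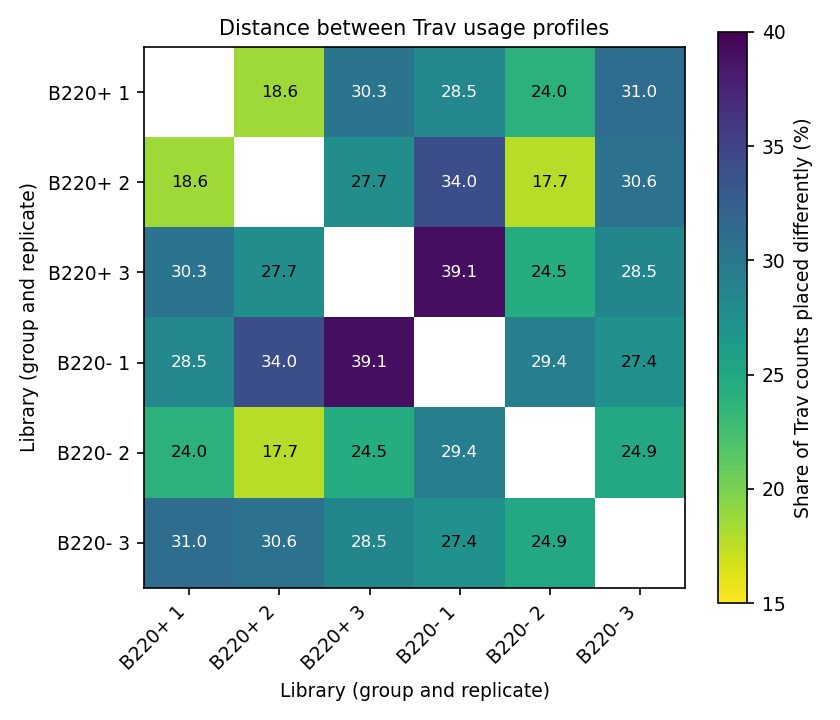
Share of Trav counts placed differently (%) for every pair of the 6 libraries, dark for distant pairs. The values within B220+ (upper left) and within B220- (lower right) lie in the same range as many of the values between groups, which run from 17.7% to 39.1%.

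The invariant receptors leave a signature in single segments, since all invariant NKT cells of the mouse share Trav11 joined to Traj18, and MAIT cells share Trav1 joined to Traj33. Trav11 had 0 counts in all 6 libraries, and Trav11d, which is nearly identical to it, had 1 count, in B220- replicate 3. A count of 0 allows a share of up to 0.0564% to 0.180% of Trav counts in the B220+ libraries and 0.119% to 0.189% in the B220- libraries. Trav11 and Trav11d have no unique stretch of 50 bases, which limits what their counts can show. The related pseudogene Trav11n had 0, 0 and 0 counts in B220+ cells and 4, 3 and 0 in B220- cells. Traj18 had 2, 6 and 0 counts in B220+ cells, against 3, 2 and 2 in B220- cells.

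Trav1, the MAIT V segment, has unique sequence and had 9, 7 and 6 counts in B220+ cells, against 4, 8 and 5 in B220- cells. Its share was 0.330 ± 0.185% in B220+ and 0.275 ± 0.102% in B220- cells (exact permutation p = 0.7). Traj33 had 1, 2 and 1 counts in B220+ cells and 1, 0 and 0 in B220- cells. No difference in these segments was detectable at this depth. Of 5 markers of NKT and MAIT cells, edgeR called the receptor Klrb1c higher (22.1 ± 1.08 CPM in the B220+ group, against 10.4 ± 1.59 CPM in the B220- group, adjusted p = 1.64e-04), and called Slamf6 and Il18r1 lower. Zbtb16, the factor PLZF of innate-like T cells, was higher by 1.34 on the log2 scale without passing (edgeR adjusted p = 0.0597; replicate block 0.0349). Of the 5 markers, edgeR called 3, DESeq2 5 and edgeR with the replicate block 4, against 11.1%, 9.62% and 17.5% of all genes in the same order.

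Genes that make and read the α locus were set beside the segments. Among 12 genes of V(D)J recombination and end joining, 9 were tested and 0 were called by edgeR, by DESeq2 or with the replicate block, with a median log2 fold change of 0.091. An unadjusted p under 0.05 was found for 1 of them. Rag1 and Rag2, the recombinase that cuts the segments, had 0 counts in all 6 libraries. Of 11 factors that bind the α enhancer, 0 were higher and 3 lower, against 5.58% and 5.56% of all genes, with a median of -0.078. Lef1, which bends enhancer DNA, averaged 5.18 ± 0.688 CPM in the B220+ libraries and 24.4 ± 3.71 CPM in the B220- libraries (edgeR adjusted p = 2.72e-06). Runx1 fell by 0.58 (edgeR adjusted p = 5.52e-04) and Myb by 1.68 on the log2 scale (edgeR adjusted p = 0.00216), while Ets1 and Tcf7 were not called. Tcf3 was called only with the replicate block (edgeR adjusted p = 0.0393). Of 12 receptor partners and other chains, 11 were tested, and 3 were higher (Trdc, Trgc1 and Trgc4) and 1 lower. The lower one was Cd247, the signalling ζ chain, with 166 ± 9.01 CPM in the B220+ group, against 236 ± 22.9 CPM in the B220- group (edgeR adjusted p = 0.00107).

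Markers of the other cell types that a sort could hold were summed for each library. The defining T cell genes were abundant in both groups, with a summed level of 5301 to 5691 CPM in B220+ and 5479 to 5698 CPM in B220- libraries. B cell markers summed to 31.8 to 35.2 CPM in B220+ and 24.9 to 33.4 CPM in B220- libraries, nearly all of it Cd79b, and 0 of 2 tested were called by edgeR, by DESeq2 or at an unadjusted p under 0.05. Epithelial markers summed to 79.6 to 95.1 CPM in B220+ and 34.7 to 61.2 CPM in B220- libraries, and 0 of 7 tested were called by edgeR, while 1 (Epcam) had an unadjusted p under 0.05 and was called higher by DESeq2. Epcam made up most of the sum, at 68.7 to 81.0 CPM in B220+ and 19.99 to 49.0 CPM in B220- libraries. The other epithelial markers summed to 9.34 to 18.8 CPM in B220+ and 12.2 to 19.3 CPM in B220- libraries, which overlapped. Helper T cell markers summed to 52.56 to 59.98 CPM in B220+ libraries and 198.8 to 295.2 CPM in B220- libraries, with Cd4 and Cd40lg called lower and Zbtb7b not called. The CD8 chains parted, with Cd8a called higher (edgeR adjusted p = 0.00779, and 0.0537 when B220- replicate 3 was dropped) and Cd8b1 lower. Of 6 γδ T cell markers, the 3 constant genes already given above were called higher and Cd163l1 lower, against 5.58% and 5.56% of all genes. Trgc2 and Sox13 were not called (Sox13 log2 fold change -1.26, edgeR adjusted p = 0.157). The part of these cell types in the segment shares was not tested.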

How the data were processed

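Total RNA of 6 libraries, made with a directional kit per the labels' protocols, gave the whole-number read counts per gene that the authors deposited, not normalized. The tools named, per the submitters' processing notes, are HISAT2 2.1.0, featureCounts 1.6.3, SAMtools 1.9, Trimmomatic 0.38 and FastQC 0.11.7, with the mm10 build. The use of strand and the treatment of reads with several matches were not given in the sources used here. This bears on V segments with identical copies, on Traj segments, whose models are 29 to 72 bases long and also lie within unspliced RNA, and on 3 rare segments that overlap a gene on the other strand (Trav22, with 10 counts, overlaps Gm43647, with 2277). All 191 segments had the coordinates of GENCODE release M21, the source of the exon sequences.

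Genes were tested for a group difference by edgeR 4.0.16 (R 4.3.3) with trimmed-mean scaling, a robust quasi-likelihood fit on the group alone, filterByExpr with minimum count 10 and minimum total 15, and Benjamini-Hochberg adjustment over 14722 genes. The call threshold was 0.05. Usage measures were compared with exact two-sided permutation tests over the 6 libraries, whose smallest p is 0.1, or 0.25 within pairs. On simulated data for this comparison (3 sets, 200 of 14722 genes changed) the edgeR test recovered 46.7%, 76.7%, 86.7% and 92.7% of genes changed 1.5, 2, 3 and 4-fold, and 7.16% of calls were false. The changed genes were drawn from all genes tested, whose median biological coefficient of variation was 0.107, against 0.278 for the tested segments. Recovery was not measured for the segments, so these rates do not describe them. The segments and gene lists were chosen with earlier results of these data known. Named were Trac, the 10 Trav and 10 Traj segments of highest mean share, called segments, the segments of the invariant receptors, the 5 leading dv segments, other constant genes and called list members. Further segments were named after their values were seen.

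Libraries with the same replicate number correlated in their deviations from the group means over genes outside the α locus (0.291, 0.244 and 0.272), and those with different numbers did not (-0.205 to -0.064). Because deviations were taken from means of 3 libraries, positive same-number values push the others below 0. The negative values are thus no separate evidence. On this check, and on no statement in the labels, same-numbered libraries were treated as pairs, and the replicate block was an alternative fit. Other alternatives were relative log expression scaling, library size alone, DESeq2 1.42.0, no filter on low counts, leaving out each library, and leaving out pseudogenes, overlapping models or, chosen after seeing the data, single segments. Intervals are 95% exact Clopper-Pearson, and a count of 0 was taken to allow 3 counts.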

Additional observations from a re-analysis of the deposited data

How the results depend on the processing

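Traj58 and Trav16n stayed called under both other scalings, with DESeq2, with no filter on low counts and with the replicate block. The number of called segments, 2 (1 higher, 1 lower), became 8 (3 and 5) with no filter on low counts, which tested 162 segments and called 8.41% of all genes, and 4 (2 and 2) with the replicate block, which called 17.5% of all genes and added Trav14n-1 (adjusted p = 0.0384) and Trav15-2-dv6-2. Under the pairing by replicate number no usage measure could pass, since its smallest p is 0.25. Leaving out 1 library at a time gave 0 to 4 called segments, 0 to 4 higher and 0 to 3 lower. There were 0 without B220+ replicate 1, B220+ replicate 2 or B220- replicate 3. Calls over all genes moved as well, from 970 of 14881 without B220+ replicate 2 to 1789 of 14860 without B220- replicate 2. Differences near 0 changed sign or became 0 in some of these fits. They ran from -0.0574 to 0.0657 for the log2 fold change of Trac, from -8.51 to 9.11 CPM for the Trav sum, from -1.14 to 1.74 for Trav counts per 100 Trac counts, from -1.01 to 3.51 percentage points for the dv share and from -0.0315 to 0 percentage points for the share of Trav11 with Trav11d.

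Among alternatives chosen after seeing the data, leaving out Trav15n-2 turned the Trav sum to -5.59 CPM and Trav counts per 100 Trac counts to -1.28 (B220+ minus B220-). The ratio to Trac was also -0.0306 without pseudogenes, and 0.00523 with all segments. Leaving out Traj58 turned the Traj sum to -0.195 CPM and the share of Traj numbered above 30 to -0.163 percentage points, and leaving out Traj61 to Traj58 turned that share to -1.18. These sign changes follow from the segments removed. The J-proximal Trav share kept its sign in every alternative tried.

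The Traj results rest on 133 to 518 counts per library. A Traj count of 0 allows a share of up to 0.579% to 2.11% in B220+ libraries and 1.41% to 2.26% in B220- libraries. Of 60 Traj segments, 5 passed the filter on low counts.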
